A study of Caenorhabditis elegans with 4 samples.

Results

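The right part of the X chromosome of Caenorhabditis elegans, above 11.8 Mb, held TBP-1 peaks more densely than the rest of X and than the autosomes. TBP-1 is the TATA-binding protein of this worm. As background, it sits in the TFIID complex at promoters read by RNA polymerase II and in related complexes used by RNA polymerases I and III, so its peaks can mark genes of all these enzymes. The X chromosome of the worm is known for dosage compensation, in which a condensin-containing complex lowers transcription from both hermaphrodite X chromosomes, and for its wealth of transfer RNA genes, which RNA polymerase III reads.

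The members are the peaks on the right part of X, about its last 33.4%, in the authors' peak list of the whole series. A peak belonged to it when its centre lay above 11.8 Mb on the WormBase WS220 build, which is 66.6% of the way along X. By this positional rule, 379 of 4203 nuclear peaks belonged. The stretch is 5.92 Mb long up to the end of the last X peak and makes up 5.90% of the nuclear chromosomes. The peak just outside the boundary, X 11798006 to 11798335, was 330 bp wide with a score of 8.81, and the one just inside, X 11806824 to 11806990, was 167 bp wide with a score of 6.03.

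The material was mixed-stage embryos of N2, the standard wild-type strain, kept at 20 °C, with males and hermaphrodites together. Chromatin immunoprecipitation used a rabbit polyclonal antibody against TBP-1 on extracts of formaldehyde-fixed embryos. The series has 4 samples, 2 of ChIP DNA and 2 of input DNA, and all share this strain and stage. A peak list was analysed for each ChIP replicate (1684 and 2660 nuclear peaks) beside the series list. Nothing in the labels tells whether separate cultures were used for the replicates, so their spread may be technical. The lists give positions and 1 score per peak with no read counts, so the sequencing depth behind each list is unknown. Intervals given here cover the counting of peaks alone. Genes, exons and promoters were not assigned to the peaks, and the bases under them are not shown, since a genome or annotation of WS220 was not used here.

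Among the left, middle and right parts of X, the right part was the densest in every list. The series list held 64.0 peaks per Mb there, against 49.5 in the left part (0 to 5.9 Mb), 45.9 in the middle part (5.9 to 11.8 Mb) and 39.5 on the autosomes. Replicate 1 had 146 peaks in the right part, or 24.7 per Mb, against 18.5, 20.7 and 15.8 in the same order. Replicate 2 had 241 peaks there, or 40.7 per Mb, against 33.1, 32.4 and 24.6. When each chromosome was divided into a left, a middle and a right part (equal in length on the autosomes, and at 5.9 and 11.8 Mb on X), the right part of X ranked first of 18 such parts in all 3 lists. The part ranked next was the left part of X in the series list (49.5) and in replicate 2 (33.1), and the middle part of chromosome III in replicate 1 (21.1 per Mb).

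**Figure D1:**
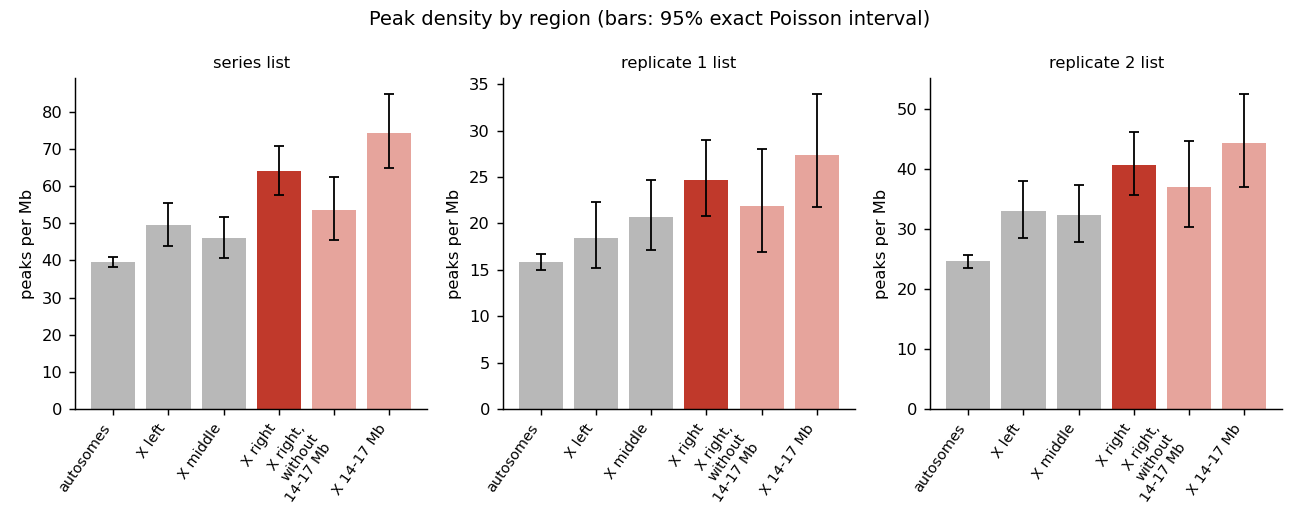
Peaks per Mb (vertical axis) for the autosomes and for stretches of X, in the series list, replicate 1 and replicate 2. Black lines are 95% exact Poisson intervals of the count. The right part (dark red) stood at 64.0, 24.7 and 40.7 peaks per Mb, against 39.5, 15.8 and 24.6 on the autosomes, and the pale bars divide it into 14 to 17 Mb and the remainder.

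Against the autosomes, the density of the right part was 1.62-fold in the series list (95% interval 1.45 to 1.80), 1.56-fold in replicate 1 (1.30 to 1.85) and 1.65-fold in replicate 2 (1.44 to 1.89). The 2 replicates gave a mean ratio of 1.61 ± 0.07 (SD, n = 2). Each ratio passed the two-sided exact binomial test of peak number against length, with adjusted p = 5.3e-16, 3.6e-06 and 2.0e-11 in that order (Benjamini-Hochberg over 9 tests). X outside the right part was also above the autosomes, but by less, at 1.21-fold (1.10 to 1.32), 1.24-fold (1.07 to 1.42) and 1.33-fold (1.19 to 1.48). The adjusted p was 7.4e-05, 0.0049 and 2.2e-06 in the exact binomial test. Here and below, the test takes the autosomes as having 1 even density. Autosomal parts differed among themselves, with the left part of chromosome V sparsest and a part of chromosome III densest in every list. The p-values against the autosomes therefore do not weigh X against the spread between regions, which was not tested. The rank of the right part among the 18 parts describes that comparison without a test.

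Within X, the right part was denser than the left and middle parts combined by 1.34-fold in the series list (1.18 to 1.53), 1.26-fold in replicate 1 (1.02 to 1.56) and 1.24-fold in replicate 2 (1.06 to 1.47). The replicate mean was 1.25 ± 0.01 (SD, n = 2). These ratios passed the exact binomial test at adjusted p = 2.3e-05, 0.033 and 0.0097. The test also takes the left and middle parts as having 1 even density, yet 500 kb windows from 0 to 11.5 Mb held 9 to 43 series-list peaks. The p-values within X therefore do not weigh the right part against the spread between regions of X, which was not tested. The binomial test takes peaks as independent, which close neighbours are not. With peaks less than 1 kb apart merged into 1, the series list still passed (1.22-fold, exact binomial test, adjusted p = 0.0099), while replicate 1 (1.23-fold, adjusted p = 0.076) and replicate 2 (1.18-fold, adjusted p = 0.063) did not. Replicate 1 also missed the threshold when the stronger 50% of its peaks was used (1.13-fold, exact binomial test, adjusted p = 0.41).

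About 50% to 60% of the X excess lay in the right part. At the autosomal density, X would hold 699.9 series-list peaks, and it held 942, an excess of 242.1. The right part accounted for 145.2 of these, or 60.0%, from 33.4% of the length. The left part accounted for 24.3% and the middle part for 15.7%. In replicate 1, 52.3 of 96.5 excess peaks (54.2%) lay in the right part, and in replicate 2, 95.2 of 190.6 (50.0%). Over the replicates the share averaged 52.1% ± 3.0 (SD, n = 2). The other parts changed places between lists: the left part held 16.2% of the excess in replicate 1 and 26.1% in replicate 2, and the middle part 29.6% and 24.0%.

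**Figure D2:**
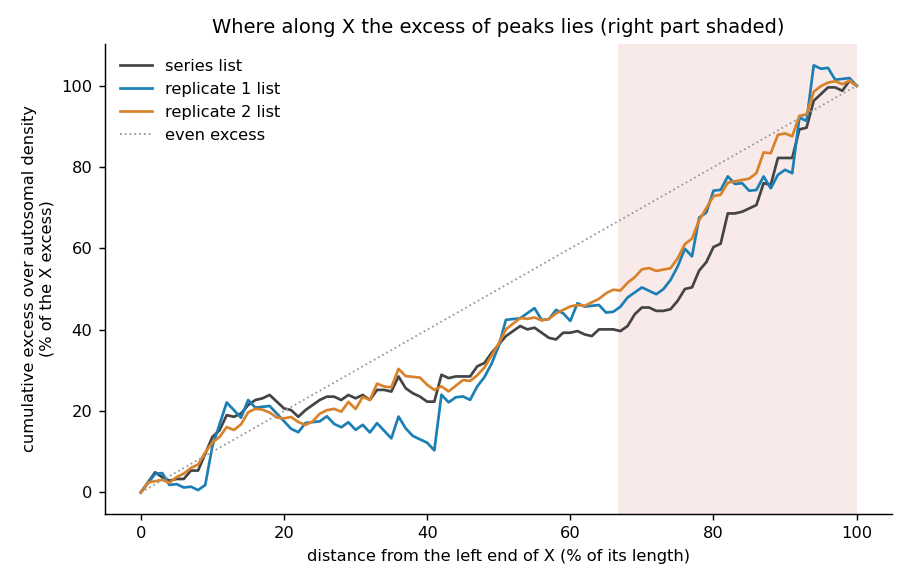
Cumulative excess of peaks over the autosomal density, as a percentage of the whole X excess (vertical axis), against distance from the left end of X in percent of its length (horizontal axis), for the 3 lists. The right part is shaded, and the dotted line is an even excess. All 3 curves lie below the dotted line where the shading starts, with 60.0%, 54.2% and 50.0% of the excess still to come.

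Most of that excess lay between 14 and 17 Mb, an interval named with results of these data in view and therefore described without a test. Its 3 Mb are 16.9% of X and held 223 members, 23.7% of the series-list X peaks, at 74.3 per Mb. Replicate 1 had 82 peaks there (27.3 per Mb) and replicate 2 had 133 (44.3 per Mb). The interval held 43.2% of the X excess in the series list, 35.8% in replicate 1 and 31.0% in replicate 2, a replicate mean of 33.4% ± 3.4 (SD, n = 2). The other 2.92 Mb of the right part held 16.8%, 18.4% and 18.9% of the excess.

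Without 14 to 17 Mb, the right part kept a density above the autosomes. The ratios were 1.35 (1.14 to 1.59), 1.38 (1.06 to 1.78) and 1.50 (1.23 to 1.82) in the series list, replicate 1 and replicate 2, with adjusted p = 0.0012, 0.028 and 6.2e-04 (exact binomial test, over 6 tests). Against the left and middle parts the ratios were 1.12, 1.12 and 1.13, and none passed the exact binomial test (adjusted p = 0.31, 0.42 and 0.31). Leaving out the densest stretch lowers these ratios by construction, and only 156, 64 and 108 peaks of the right part remain. The tests against the left and middle parts therefore cannot decide whether the remainder differs from them.

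Density varied along the right part. In windows of 500 kb, all 11 windows from 12 to 17.5 Mb held more series-list peaks than the autosomal mean of 19.8 per window, with a range of 20 to 45 and a median of 33. Replicate 1 exceeded its autosomal mean of 7.92 in 9 of these 11 windows, and replicate 2 exceeded its mean of 12.3 in 9. In the left and middle parts of X, 16 of 23 such windows exceeded the mean in the series list, 13 in replicate 1 and 19 in replicate 2. The fullest series-list windows of all X were 14 to 14.5 Mb and 16.5 to 17 Mb, with 45 peaks each, followed by 1.5 to 2 Mb in the left part with 43. That left window was the fullest of X in replicate 1, with 27 peaks. The replicates placed their own maxima within the right part differently: replicate 1 peaked at 16.5 to 17 Mb with 21 peaks, and replicate 2 at 13.5 to 14 Mb with 30. Beyond 17 Mb the density dropped, to 29 series-list peaks, 7 replicate 1 peaks and 16 replicate 2 peaks over the last 0.719 Mb. That is 40.3, 9.74 and 22.3 per Mb, against 39.5, 15.8 and 24.6 on the autosomes.

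**Figure D3:**
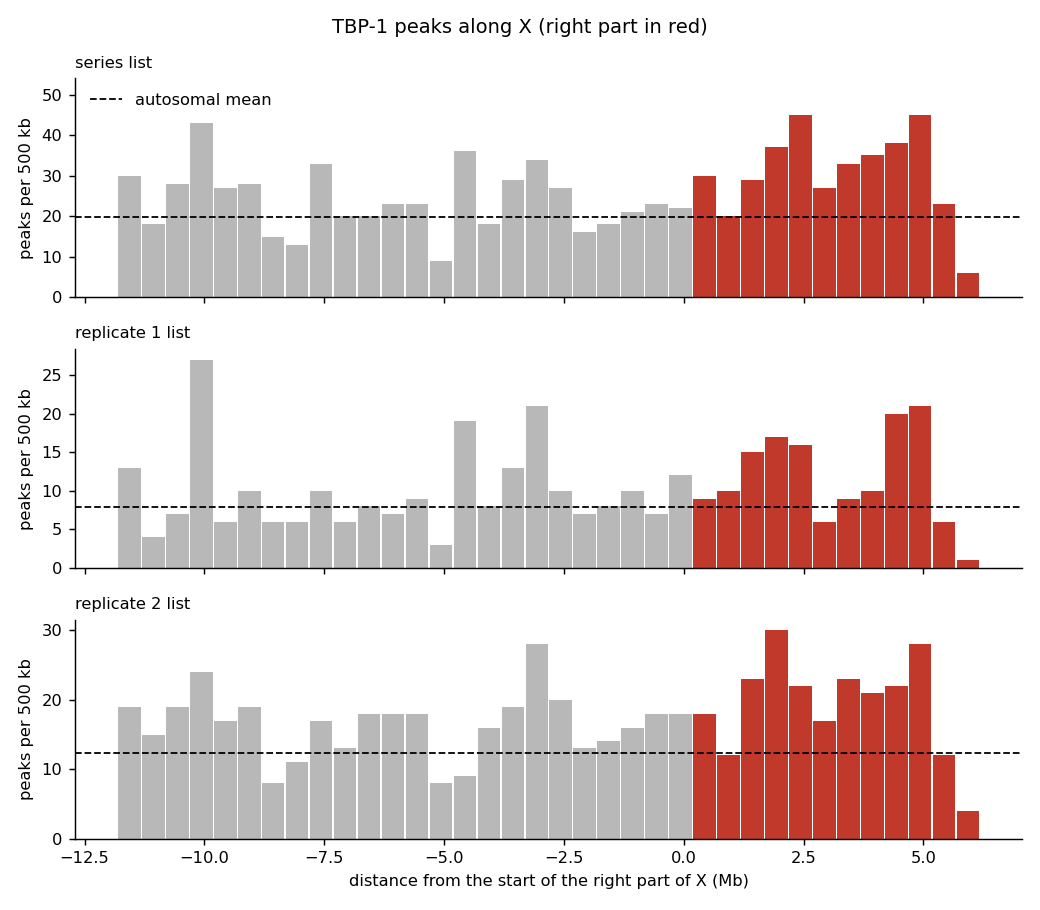
Peaks per 500 kb window (vertical axis) along X, in Mb from the start of the right part (horizontal axis), for the 3 lists. Windows centred in the right part are red, the window across the boundary is grey, the last window is cut short by the end of X, and the dashed line is the autosomal mean. Series-list windows from 12 to 17.5 Mb held 20 to 45 peaks, all above the mean of 19.8.

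One stretch stood apart between the lists, from 14.5 to 16 Mb, picked after its values were seen. Replicate 1 had 25 peaks there, or 16.7 per Mb, close to its autosomal 15.8. Replicate 2 had 61 (40.7 per Mb) and the series list 95 (63.3 per Mb), both about as dense as in the whole right part. Of the 95 series-list peaks, 24 (25.3%) overlapped a replicate 1 peak and 63 (66.3%) a replicate 2 peak. Over the whole series list these shares were 39.7% and 65.8%. From 16 to 17 Mb, by contrast, 42 of 83 members (50.6%) were in replicate 1 and 62 (74.7%) in replicate 2. How much of this follows from differences in depth between the libraries was not tested, since the depths are unknown.

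Overlap with the replicate lists was next compared, taking 1 shared bp as overlap. Of the 379 members, 142 (37.5%, 95% Wilson interval 32.7 to 42.4) overlapped peaks of both replicates, against 34.5% of all series-list peaks. Another 127 (33.5%) were in replicate 2 alone and 8 (2.11%) in replicate 1 alone, against 31.3% and 5.21% of all series-list peaks. The remaining 102 (26.9%, 22.7 to 31.6) were in neither list, against 29.0% over the whole series list. The corresponding shares in both and in neither were 33.2% and 27.4% in the left part of X, 38.4% and 22.5% in the middle part, and 33.9% and 29.9% on the autosomes. The Wilson intervals of the right part overlap those of each of these regions. Its surplus of peaks was present among peaks in both replicates, at 1.79 times the autosomal density (1.49 to 2.14), among those of replicate 2 alone at 1.78 times (1.47 to 2.14), and among those in neither at 1.46 times (1.18 to 1.79).

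The class of replicate 1 alone was the exception, at 0.61 times the autosomal density (0.26 to 1.23), an interval that includes 1. Its 8 members all lay between 14 and 17 Mb. Of these, 6 were pieces of 1 broad replicate 1 peak, X 14384930 to 14389748, 4819 bp wide with a score of 1100.69.

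**Figure D4:**
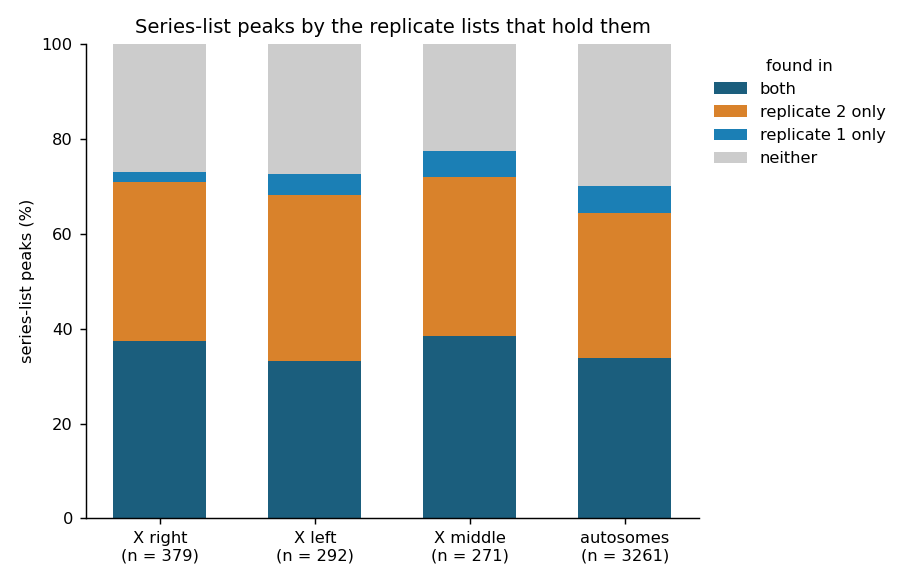
Percentage of series-list peaks (vertical axis) found in both replicates, in replicate 2 alone, in replicate 1 alone or in neither, for the right, left and middle parts of X and the autosomes. The right part had 37.5% in both, 33.5% in replicate 2 alone, 2.11% in replicate 1 alone and 26.9% in neither.

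Seen from the replicates, right-part peaks of replicate 1 were nearly all present in replicate 2. Of the 146, 140 were (95.9%, Wilson interval 91.3 to 98.1), against 198 of 231 (85.7%, 80.6 to 89.6) in the left and middle parts and 83.9% (81.8 to 85.8) on the autosomes. Taken separately, the share was 88.1% (80.7 to 92.9) in the left part, an interval that overlaps that of the right part, and 83.6% (76.0 to 89.1) in the middle part. These intervals treat neighbouring peaks as independent, and the difference was not tested. Conversely, replicate 1 held 124 of 241 replicate 2 peaks (51.5%, 45.2 to 57.7), against 48.2% (43.2 to 53.2) in the rest of X and 49.6% on the autosomes. Of the 146 replicate 1 peaks, the series list held 143 (Wilson interval 94.1 to 99.3). Of the 241 replicate 2 peaks, it held 229 (91.5 to 97.1). Over the whole replicate lists it held 95.3% and 93.7%, which lie inside these intervals. This recovery therefore does not set the right part apart.

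Scores were used as ranks within a list, because their scale is not stated. The members spanned nearly the whole scale, from 1.42 to 246.25, with a median percentile of 52.6 and quartiles at 25.9 and 78.1. The median was 50.5 in the rest of X and 49.6 on the autosomes. Among the strongest 10% of the list were 46 members, or 12.1% of them (9.22 to 15.8), against 13.0% in the rest of X and 9.23% on the autosomes. All 46 were in both replicates. The share among the list's other strongest peaks is not given here. Peaks in both replicates ranked high over the whole list too, at a median percentile of 82.8. The density surplus over the autosomes was present in every score class of the series list, at 1.56, 1.53, 1.47 and 1.94 times from the weakest to the strongest 25%, with overlapping intervals. In the replicates all ratios were above 1, but the interval included 1 for the weakest 25% (1.21, 0.80 to 1.75) and the class above the median (1.26, 0.84 to 1.84) of replicate 1 and for the class below the median of replicate 2 (1.29, 0.95 to 1.73).

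Number and strength did not always go together along the right part. The dense 14 to 17 Mb interval had 22 of its 223 members in the strongest 10% (9.87%), and the rest of the right part had 24 of 156 (15.4%). This difference was not tested. By megabase, the median score percentile was 48.8 at 12 to 13 Mb, 61.4 at 13 to 14 Mb, 48.3 at 14 to 15 Mb, 40.8 at 15 to 16 Mb and 65.5 at 16 to 17 Mb. The last 29 members, beyond 17 Mb, had a median of 56.4 and 0 in the strongest 10%, and 12 of them were in neither replicate.

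**Figure D5:**
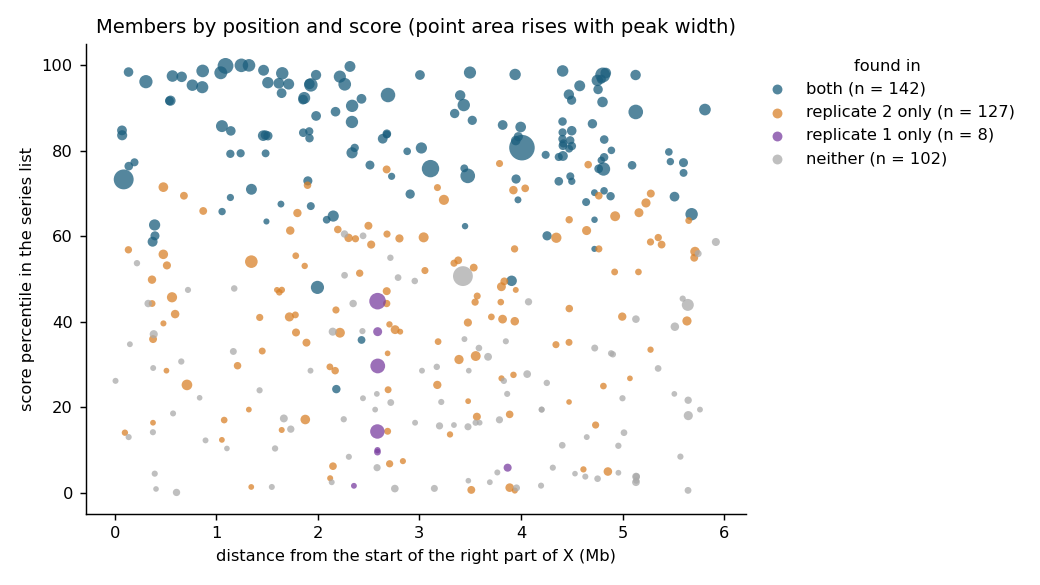
Score percentile in the series list (vertical axis) of the 379 members against distance from the start of the right part in Mb (horizontal axis), coloured by the replicate lists that hold each peak, with point area rising with width. Members of both replicates (142) fill the upper part, with a median percentile of 83.1, and those of neither (102) lie lower, with a median of 21.1.

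The 20 strongest members found in both replicates were wider than most members, 420 to 1152 bp with a median of 614 bp against 280 bp for all members, and scored at least 220.5. Peaks in both replicates were wider over the whole series list too, with a median of 436.5 bp against 271 bp for all peaks. Widths of equally strong peaks elsewhere are not given here. Of the 20 members, 10 lay between 12 and 14 Mb, 9 between 14 and 17 Mb and 1 below 12 Mb. In the replicates, 14 were in the strongest 10% of replicate 1 and 17 in that of replicate 2. The lowest of them stood at percentile 81.4 in replicate 1 and 85.1 in replicate 2. The leading pair, X 13045896 to 13046748 (853 bp) and X 13120902 to 13121633 (732 bp), shared the list's top score of 246.25 with 5 peaks elsewhere. The first scored 3100 in both replicates. The second scored 3205.71 in replicate 1, percentile 99.9, and 3100 in replicate 2. The value 3100 recurs near the top of both replicate lists, so ranks there are tied.

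Next in order came X 12889573 to 12890724 (score 246.22, 3100 in both replicates) and X 14115348 to 14115898 (244.26, with 2543.07 in replicate 1 and 3100 in replicate 2). X 13264436 to 13264982 followed with 234.11. The top member beyond 16 Mb was X 16209486 to 16210096, with a score of 232.95 and 3100 in both replicates. It lay inside a wide replicate 2 peak of 2546 bp. The member at the edge of the longest empty stretch, X 12843078 to 12843845, scored 228.36 and was in the strongest 10% of each replicate, at percentiles 91.95 and 91.75.

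Some strong series-list members ranked lower in 1 or both replicate lists. X 14804590 to 14805028 scored 223.67 in the series list, percentile 97.7, but stood at percentile 81.7 in replicate 1 and 88.6 in replicate 2. X 12367373 to 12367989 stood at percentile 86.9 in replicate 1 and 99.7 in replicate 2. Over the 142 members in both replicates, Spearman's rho between replicate percentiles was 0.81, a description across peaks that share their libraries. It was 0.87 over 201 such peaks in the rest of X and 0.80 over 1105 on the autosomes.

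The members absent from both replicates were weaker and narrower. Their median width was 184 bp, against 420 bp for members of both replicates, and their median score percentile was 21.1, against 83.1. The whole series list showed the same, with 181 bp against 436.5 bp and percentiles of 23.1 against 82.8. The strongest 5 were X 14061436 to 14061687 (score 17.54), X 14244499 to 14244709 (17.1), X 17718599 to 17718897 (16.22), X 17544343 to 17544568 (14.73) and X 14513488 to 14513676 (14.15). The third of these is the last peak on X.

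Widths in the right part were close to those elsewhere. The median was 280 bp, with quartiles at 202 and 400.5 bp, against 280 bp in the rest of X and 270 bp on the autosomes. Replicate 1 had a median of 488.5 bp in the right part (531 in the rest of X) and replicate 2 of 879 bp (873.5). The members covered 132.7 kb, 2.24% of the stretch, against 1.92% of the rest of X and 1.48% of the autosomes. In covered bp the right part was therefore 1.17-fold above the rest of X in the series list, less than the 1.34-fold in peak number, and 1.04-fold in replicate 1 (1.26-fold in number). In replicate 2 it was 1.21-fold, close to the 1.24-fold in number.

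Of the 379 members, 8 were over 1 kb (2.11%) and 1 over 3 kb, against 3.47% over 1 kb in the whole series list, 3.91% in the rest of X and 3.56% on the autosomes. These shares were not tested. The widest, X 15807292 to 15811191, measured 3900 bp with a score of 57.49 and was also broad in the replicates, at 4264 and 4629 bp with a score of 3100 in each. The next, X 11886397 to 11888220, was 1824 bp wide and in both replicates. X 15226919 to 15228727, 1809 bp wide with a score of 12.01, was in neither. X 14907999 to 14909393 (1395 bp) was in both, and X 14386781 to 14388046 (1266 bp) lay within the broad replicate 1 peak described above.

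Members lay close together. The median gap between a member and the next peak was 7546 bp, against 10771 bp in the rest of X and 13524.5 bp on the autosomes. A neighbour within 1 kb was found for 133 members (35.1%, 30.5 to 40.0), against 25.8% of all series-list peaks, 22.9% (19.6 to 26.6) in the rest of X and 25.2% (23.8 to 26.8) on the autosomes. A denser stretch has more close neighbours at any given scatter, and how much of the difference follows from density was not tested. The share was higher in 14 to 17 Mb, at 39.9%, than in the remainder of the right part, at 28.2%. In replicate 1 it was 28.8% (22.0 to 36.6) for the right part, against 23.8% in the rest of X and 31.1% in the middle part alone. In replicate 2 it was 22.0% (17.2 to 27.6), against 14.5%.

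The 133 close members formed 52 runs, and 17 runs of at least 3 peaks held 63 members. Of these longer runs, 12 lay between 14 and 17 Mb. The run with the most peaks, X 14385034 to 14389654, had 6 members scoring 3.85 to 9.95, all in the broad replicate 1 peak and none in replicate 2. The run at X 14476605 to 14479011 had 5 members in 2407 bp, 249 to 342 bp wide and scoring 9.81 to 85.36. All 5 were in replicate 2, where they fell in 2 peaks, and 2 were in replicate 1. The run at X 16272591 to 16275461 also had 5 members in 2 replicate 2 peaks, with 1 in replicate 1. Another run of 5, X 16928021 to 16933189, spanned 5169 bp and is named after its values were seen. Of its members, 2 were in both replicates and 3 in neither. Across the right part, 32 of 241 replicate 2 peaks in the right part (13.3%, 9.56 to 18.1) spanned several series-list peaks, against 6.99% (4.85 to 9.99) in the rest of X and 7.72% on the autosomes. For replicate 1 the shares were 2.05%, 3.90% and 2.98%. Narrow series-list peaks thus counted several times where replicate 2 listed 1 wide peak, and the merged counts given above bear on this directly.

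The longest empty stretch between neighbouring members ran from X 12693257 to 12843077 (149.8 kb), and neither replicate had a peak centred in it. The next ran from X 15874077 to 15997188 (123.1 kb), also with 0 peaks in both replicates. The last, X 17611593 to 17718598 (107.0 kb), held 1 replicate 2 peak. The longest gap to a next peak was 214.6 kb in the rest of X and 255.0 kb on the autosomes, over longer stretches.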

How the data were processed

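Peak lists of 2 TBP-1 ChIP replicates and of the whole series were used; input libraries were not analysed here. Per the file headers, positions are on WormBase WS220, and the lists name MACS (replicates) and MACS v2 (series list). BWA (no version) and ce10 appear, with no role, per the submitters' processing notes. Not given in the sources used here were the caller settings, the control library, filters and the making of the series list, which was treated as pooled. MACS calls depend on depth, fragment length and control. The deposited lists give a score for each peak, of unstated scale, used only as a rank.

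Lengths ran to each chromosome's last peak. Mitochondrial peaks (11 in the series list, 1 in replicate 1, 0 in replicate 2) were left out. Peaks were placed by their centre. Density ratios had two-sided exact binomial tests, Benjamini-Hochberg adjusted, threshold 0.05, with 95% Clopper-Pearson intervals; shares had Wilson intervals. The excess is the count minus length times autosomal density. Named peaks were the 20 strongest in both replicates, the 5 strongest in neither, the 5 widest, the 3 runs of most peaks (gaps under 1 kb, ties by shorter span) and 3 longest empty stretches; not all of the 20 are printed. Members, comparisons and alternatives were chosen with earlier results of these data known, and those without 14 to 17 Mb, or with peaks in at least 1 or neither replicate only, were added after seeing the data. The scripts were tested on simulated data, in which peaks were independent and the autosomes had 1 density. Clustered peaks and uneven densities were not covered. Python 3.11.15, numpy 2.4.6, pandas 2.3.3, scipy 1.17.1 and matplotlib 3.10.9 were used.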

Additional observations from a re-analysis of the deposited data

How the results depend on the processing

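The excess of the right part over the autosomes kept its direction and its call in every alternative with a test, with ratios of 1.35 to 1.79 in the series list, 1.34 to 1.62 in replicate 1 and 1.50 to 1.94 in replicate 2 (covered bp, without a test, included). The excess over the rest of X kept its direction, at 1.12 to 1.44, 1.04 to 1.26 and 1.13 to 1.30, but not always its call: it was lost on merging neighbours in replicate 1 (1.23) and replicate 2 (1.18), with the stronger 50% in replicate 1 (1.13), and without 14 to 17 Mb in all 3 lists (1.12, 1.12 and 1.13). In covered bp it was 1.17 in the series list. The ratios without 14 to 17 Mb are lower by construction, since that interval was named with results of these data in view. X outside the right part lost its call over the autosomes among series-list peaks in neither replicate (1.01).

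The share of the X excess in the right part was 65.7%, 58.7% and 53.5% (series list, replicate 1, replicate 2) when expected numbers came from all nuclear length, 52.8% and 46.2% with merged neighbours in the series list and replicate 2, and 42.1% with the stronger 50% in replicate 1. In 14 to 17 Mb it was 48.8% and 39.8% by all nuclear length in the series list and replicate 1, 35.4%, 29.3% and 27.6% merged, and 39.6% and 23.6% with the stronger 50% in the series list and replicate 1. The mean right-part share of X peaks, 38.6%, was 38.4% to 38.7% with either replicate left out.

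Members in both, neither and at least 1 replicate were 29.8%, 34.6% and 65.4% with centres within 250 bp, and 19.8%, 53.0% and 47.0% with the stronger 50% of the replicate lists. The same shares over the whole list are not given here for these settings, so they do not set the members apart. The share in at least 1 was 39.6% without replicate 2 and 71.0% without replicate 1, against 39.7% and 65.8% of all series-list peaks. Close neighbours were 21.9% at gaps under 500 bp, 43.5% under 2 kb and 26.1% with centres under 1 kb apart. In the same order, the rest of X had 15.8%, 32.0% and 15.6%, and the autosomes 14.8%, 35.5% and 16.5%. Members in both replicates had a median width of 420 bp and percentile of 83.1. Settings with fewer peaks have less power, and the cause of the other shifts was not tested. No paired analysis was possible because the input samples, which share replicate numbers with the ChIP samples, gave no values here. With depth unknown, a weak peak missing from a list shows little.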
